A study of Mus musculus with 31 samples.

Results

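The genes described here are the translation initiation and elongation factors, taken as every row of the count table whose symbol begins with Eif1 to Eif6, Eef1 or Eef2, with Eif4enif1 left out. The rule found 71 of the 20544 gene symbols in the table, and no measured value entered it. It also took in a few symbols that are not factors, such as the methyltransferases of eEF1A and eEF2, the kinase of eEF2, and Eif2c5, an Argonaute-type name that belongs to no translation factor.

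The data hold 31 mouse 2-cell embryos, each sequenced alone, 16 generated by in vitro fertilization with control sperm and 15 with sperm taken through sperm energy restriction and recovery (SER). All animals were wild type, and sperm came from C57BL/6J males of 12 to 14 weeks, with 1 cauda epididymis used for each treatment, and oocytes from superovulated CD1 females of 8 to 10 weeks. SER sperm were kept without glucose and pyruvate until motility was lost, after 15 to 45 min, and were then given both back, while control sperm stayed in the complete medium (IVF-TYH +/+). Insemination lasted 4 h and embryos were collected at 32 h post-insemination (HPI), after the major wave of zygotic genome activation. Which male, female or batch an embryo came from is not given in the sources used here, so p-values measure only the spread between these embryos. In whole embryos, new transcription and slower loss of a stored transcript could not be told apart.

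Initiation factors bring the small ribosomal subunit, the initiator tRNA and the mRNA together and then release one another as the large subunit joins, while elongation factors carry tRNAs to the ribosome and move it along the mRNA. The cap-binding protein eIF4E joins the scaffold eIF4G and the helicase eIF4A in eIF4F, and eIF2 delivers the initiator tRNA until one of its kinases phosphorylates it. Oocytes and early embryos are known for regulating translation of stored maternal mRNAs while the embryo's own genome is switched on, and they hold an eIF4E relative, Eif4e1b, that is largely restricted to germ cells and early embryos.

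Library totals ran from 532945 to 2085222 counts in control- and from 642321 to 3088396 counts in SER-generated embryos, and levels are given as CPM, a gene's counts scaled to the library's total. All embryos had counts for genes of an oocyte list and of a zygotic 2-cell list that holds the Zscan4 family. Of 9 sperm genes only Odf2 was counted in all embryos, while the protamine genes Prm1 and Prm2 were counted in 4 and 22. Control replicate 4 and SER replicate 15 stood apart. The 17 genes of their zygotic list summed to 45.3 and 141 CPM against 501 to 2477 CPM in the other 29 embryos, and their ribosomal protein genes to 0.133% and 0.0997% of counts against 0.337% to 3.31%. Control replicates 1 and 3 had the highest ribosomal protein shares, 3.31% and 3.12%. Markers of cumulus cells, which surround the oocyte, summed to 1572 CPM in control replicate 5, with counts for 6 of 10 markers, and to at most 97.9 CPM elsewhere. For the 5 higher and 5 lower factors with the smallest p between the groups, estimates were checked without these embryos. Those that moved by over 1.5 times are given both ways.

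Transcripts of the 71 genes together made up 1.12% to 1.82% of counts in control-generated embryos (median 1.52%) and 1.23% to 2.02% in SER-generated embryos (median 1.55%). The groups overlapped from 1.23% to 1.82%. Of the 71 genes, 46 had a count in all 31 embryos, 14 in 25 to 30 embryos, 10 in 1 to 24 embryos and 1 in none, and the 10 most abundant held 58.2% of the summed counts. The filter on low counts kept 58 of them among 8571 genes tested. Comparisons of level between genes below use CPM per kb of exon, for 70 genes with an exon length in the GENCODE vM21 annotation of GRCm38. The counts merge 5′ reads with internal reads, and whether both scale with exon length was not tested. Ranks between genes can differ between CPM per kb and CPM.

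**Figure D1:**
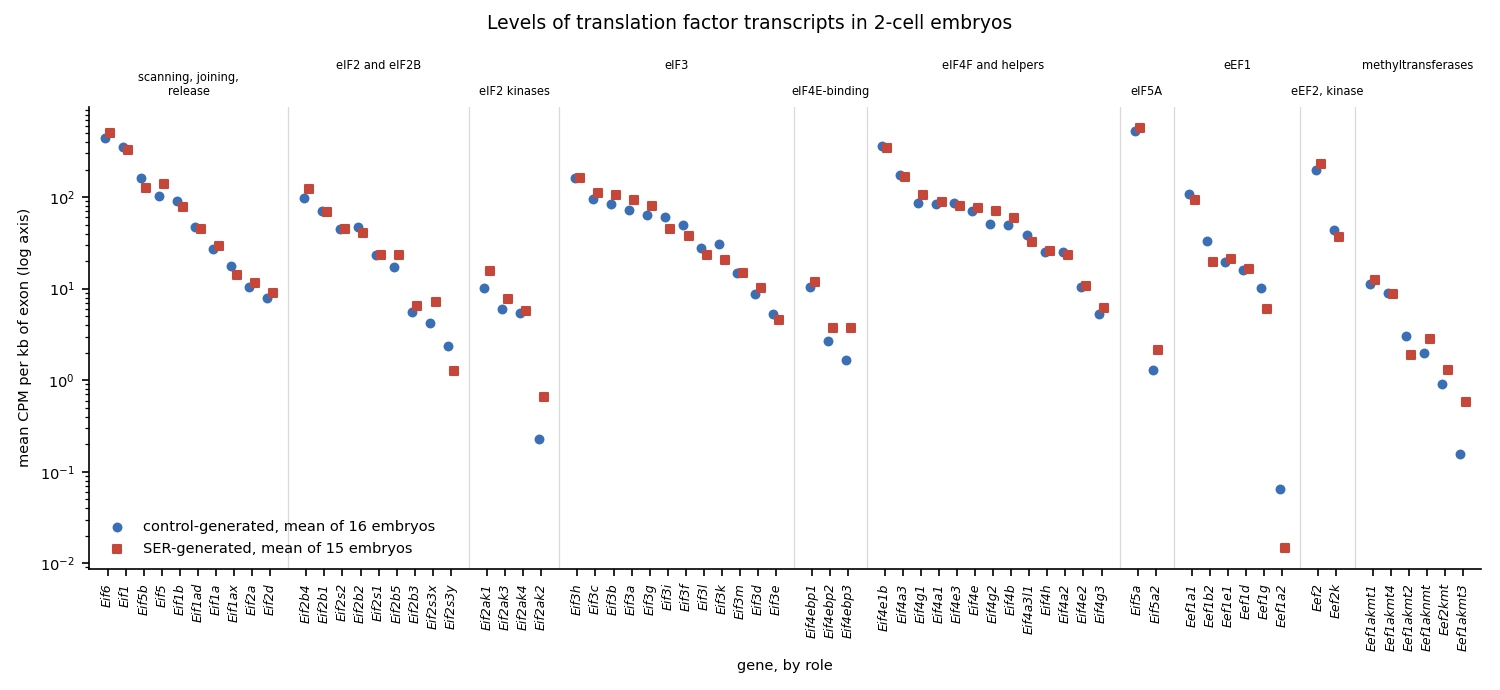
Mean level of each factor on a log axis, in CPM per kb of exon, for 16 control- (circles) and 15 SER-generated embryos (squares), with genes grouped by role and ordered by level. Eif5a, Eif6 and Eif4e1b stand highest, and in most genes both groups' means lie close together; genes with no count in one of the groups or without an exon length are left out.

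Among factors of start codon scanning, subunit joining and release, Eif6 and Eif1 had the highest levels per kb. Eif6 encodes the factor that holds the large subunit apart from the small one until joining, and its mean over 31 embryos was 471 ± 212 CPM per kb (SD, n = 31). Eif1, whose product keeps scanning stringent, had 340 ± 95.7 CPM per kb (SD, n = 31). The GTPase gene Eif5b, which catalyses subunit joining, had 144 ± 57.2 CPM per kb and Eif5, which encodes the GTPase-activating protein of eIF2, had 120 ± 43.9 CPM per kb. At the low end of the role, Eif2d had a mean of 8.43 CPM per kb. Eif5a, which encodes the factor that helps ribosomes through difficult peptide bonds, had the highest level of all 70 genes, 550 ± 162 CPM per kb, and its paralog Eif5a2 had 1.70 ± 1.21 CPM per kb.

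The genes of eIF2 and of eIF2B, which reloads eIF2 with GTP, were lower. Eif2b4 led them with 110 ± 56.8 CPM per kb, and Eif2s1, which encodes the α subunit that the kinases phosphorylate, had 23.6 ± 12.6 CPM per kb. Of the eIF2 kinases, the heme-regulated Eif2ak1 had 12.8 ± 8.16 CPM per kb, Eif2ak3 of the endoplasmic reticulum 6.77 ± 3.83 and the amino acid sensor Eif2ak4 5.59 ± 2.90. The kinase activated by double-stranded RNA, Eif2ak2, had a count in 15 of 31 embryos and a mean of 0.437 ± 0.707 CPM per kb. The spread between embryos was about as large as these differences among the first 3 kinases.

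The subunit genes of eIF3, the large scaffold on the small ribosomal subunit, ranged from 163 ± 88.8 CPM per kb for Eif3h to 4.91 ± 3.49 CPM per kb for Eif3e among the 12 that passed the filter. Eif3c, Eif3b and Eif3a, which encode core subunits, had 103, 95.5 and 82.3 CPM per kb. Eif3j1 had a count in 2 embryos and Eif3j2 in none. These 2 genes are near-identical copies, and of the 5′ reads the authors kept those that map uniquely, so these values cannot be read as absence of the transcript.

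Within eIF4F and its helpers, Eif4e1b had the highest level, 355 ± 259 CPM per kb, and the widely expressed Eif4e had 73.6 ± 44.2 CPM per kb. The exon junction helicase Eif4a3 had 170 ± 84.1, the scaffold Eif4g1 95.8 ± 43.1, the main eIF4A helicase Eif4a1 85.8 ± 30.4 and the cap-binding relative Eif4e3 83.0 ± 77.3 CPM per kb. The genes of the inhibitors that bind eIF4E were low, with 11.1 ± 12.6 CPM per kb for Eif4ebp1, 3.17 ± 2.13 for Eif4ebp2 and 2.63 ± 3.71 for Eif4ebp3. For Eif4ebp3, 67.3% of its exon bases are also covered by another annotated gene on the same strand, so its reads could have been left unassigned.

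Among elongation factors, Eef2, which encodes the translocase, had 213 ± 96.2 CPM per kb and Eef1a1, which encodes the carrier of aminoacyl-tRNA, 100.5 ± 38.4 CPM per kb. Eef2k, whose product phosphorylates and slows eEF2, had 39.9 ± 28.7 CPM per kb. The subunit genes of the exchange factor of eEF1A were lower, with 26.6 ± 27.5 CPM per kb for Eef1b2 and 8.19 ± 5.84 for Eef1g. The neuronal and muscle form Eef1a2 had a count in 3 embryos. Of the 7 methyltransferase symbols, 2 passed the filter, Eef1akmt4 and Eef1aknmt, and the read-through symbol Eef1akmt4-ece2 had a count in 1 embryo.

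To ask whether the sperm treatment altered these transcripts, a quasi-likelihood test in edgeR was run on the counts of all 8571 genes between both groups of embryos, with Benjamini-Hochberg adjustment. At an adjusted p under 0.1, 0 of the 58 factors and 0 of all tested genes (0.0%) differed. An unadjusted p under 0.05 was found for 3 factors, Eef1b2, Eif3i and Eif2ak1, a share of 3 in 58 where 5.73% of all tested genes had one. DESeq2 also called 0 factors. The study reported differentially expressed genes at this threshold, with DESeq2 after ComBat-seq correction for batch. Neither fit here holds a batch term, since no label names an embryo's batch. The estimate was higher in SER-generated embryos for 31 factors and lower for 27, where the shares over all tested genes were 52.7% and 47.3%. Factors and all tested genes had the same median, 0.02 on the log2 scale. In data simulated at these depths, the same test called 80% of genes changed 4-fold and 33% of those changed 2-fold, so changes of the smaller size could be missed.

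**Figure D2:**
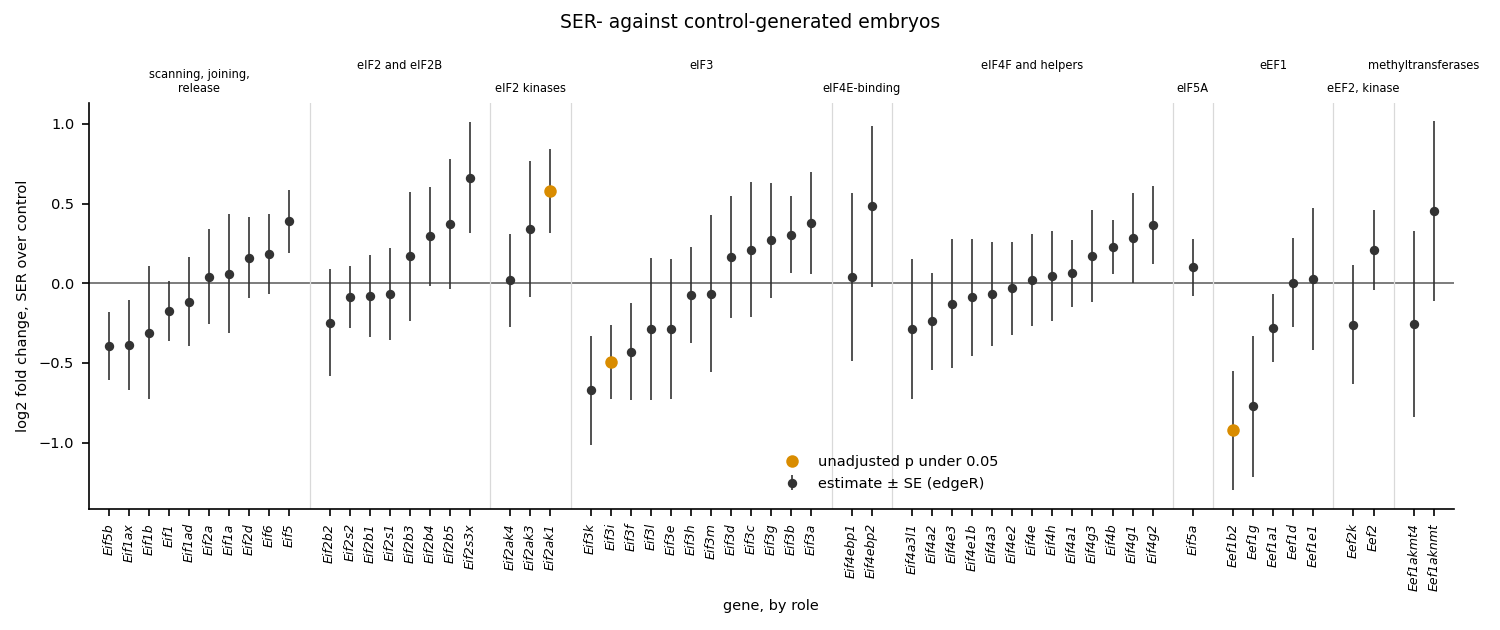
Log2 fold change of SER- over control-generated embryos for the 58 tested factors, by role, with the standard error as bars. Estimates lie between -0.92 and 0.66, and the 3 orange points have an unadjusted p under 0.05, none of which held after adjustment.

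Eef1b2 lies on chromosome 1 from 63176825 to 63180486 (GRCm38, plus strand) and encodes the exchange subunit of eEF1. Its level ran from 23.5 CPM through a median of 53.4 to 355 CPM in control-generated embryos, and from 17.5 CPM through 51.6 to 98.4 CPM in SER-generated embryos. The medians were nearly equal, and 9 of 15 SER-generated embryos lay below the control median. On the log2 scale SER over control stood at -0.92 with an SE of 0.38 (edgeR adjusted p = 0.748). The 2 highest embryos were control replicates 3 and 1, with 355 and 271 CPM, which also had the highest ribosomal protein share. Without both of them the fold on the log2 scale was -0.07 (adjusted p = 0.985), and it was -0.51 without control replicate 3 alone (adjusted p = 0.997). Leaving out a gene's highest controls raises its estimate by construction.

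The eIF3 subunit genes Eif3i and Eif3k also had lower estimates in SER-generated embryos. Eif3i (chromosome 4, 129591960 to 129600648, minus strand) ran from 105 CPM through a median of 208 to 495 CPM in control- and from 96.2 CPM through 144 to 345 CPM in SER-generated embryos. Its control median exceeded the level of 12 SER-generated embryos, and the ranges overlapped. The estimate was -0.49 (log2, SE 0.23, adjusted p = 0.852), and -0.33 without control replicate 3 (adjusted p = 0.997) or -0.24 without control replicates 1 and 3 (adjusted p = 0.928). For Eif3k the medians were 63.2 and 63.4 CPM, and the estimate of -0.67 (log2, SE 0.34, adjusted p = 0.869) became -0.39 without control replicate 3 (adjusted p = 0.997) and -0.16 without control replicates 1 and 3 (adjusted p = 0.961). Control replicates 3 and 1 were the highest controls of both genes, so leaving them out raises these estimates by construction.

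Eif5b and Eef1g were the other factors with the smallest p among the lower ones. Eif5b ran from 275 CPM through a median of 1749 to 2566 CPM in control-generated embryos and from 773 CPM through 1185 to 1954 CPM in SER-generated embryos. Of the 15 SER-generated embryos, 13 lay below the control median, but so did 8 control embryos by construction, and the lowest 3 embryos were controls, replicates 3, 1 and 2. Its estimate was -0.39 (log2, SE 0.21, adjusted p = 0.869), and -0.54 without control replicates 1 and 3 (adjusted p = 0.675). As these were its lowest controls, leaving them out lowers the estimate by construction. Of the exon bases of Eif5b, 16.8% are covered by Rev1 on the opposite strand. Eef1g had medians of 25.7 and 17.2 CPM and an estimate of -0.77 (log2, SE 0.44, adjusted p = 0.871).

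On the higher side, Eif2ak1 (chromosome 5, 143817788 to 143904251, plus strand) ran from 26.6 CPM through a median of 53.2 to 90.5 CPM in control- and from 38.2 CPM through 69.0 to 249 CPM in SER-generated embryos. The 4 highest embryos were SER-generated, and 5 of 15 lay below the control median. The estimate was 0.58 (log2, SE 0.26, adjusted p = 0.809). Eif5 ran from 355 CPM through 636 to 1437 CPM and from 382 CPM through 971 to 1381 CPM, with 13 of 15 SER-generated embryos above the control median. Here the estimate was 0.39 (log2, SE 0.20, adjusted p = 0.869), and the single highest embryo was a control.

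Eif2s3x, the X-linked gene of the γ subunit of eIF2, ran from 4.52 CPM through 11.9 to 48.9 CPM in control- and from 9.73 CPM through 22.9 to 49.0 CPM in SER-generated embryos. It lay above the control median in 14 of 15 SER-generated embryos, with an estimate of 0.66 (log2, SE 0.35, adjusted p = 0.869). Eif4g2, which encodes an eIF4G relative without an eIF4E-binding site, had medians of 460 and 628 CPM, an estimate of 0.37 (log2, SE 0.24, adjusted p = 0.935), and its control median lay below all but 2 of the SER-generated embryos. Without control replicates 1 and 3 the estimate of Eif4g2 was 0.58 (adjusted p = 0.876). Both were among its highest controls, so leaving them out raises the estimate by construction. The helper Eif4b had an estimate of 0.23 (log2, SE 0.17, adjusted p = 0.935). Each of these differences was smaller than the test could separate from the spread between embryos.

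**Figure D3:**
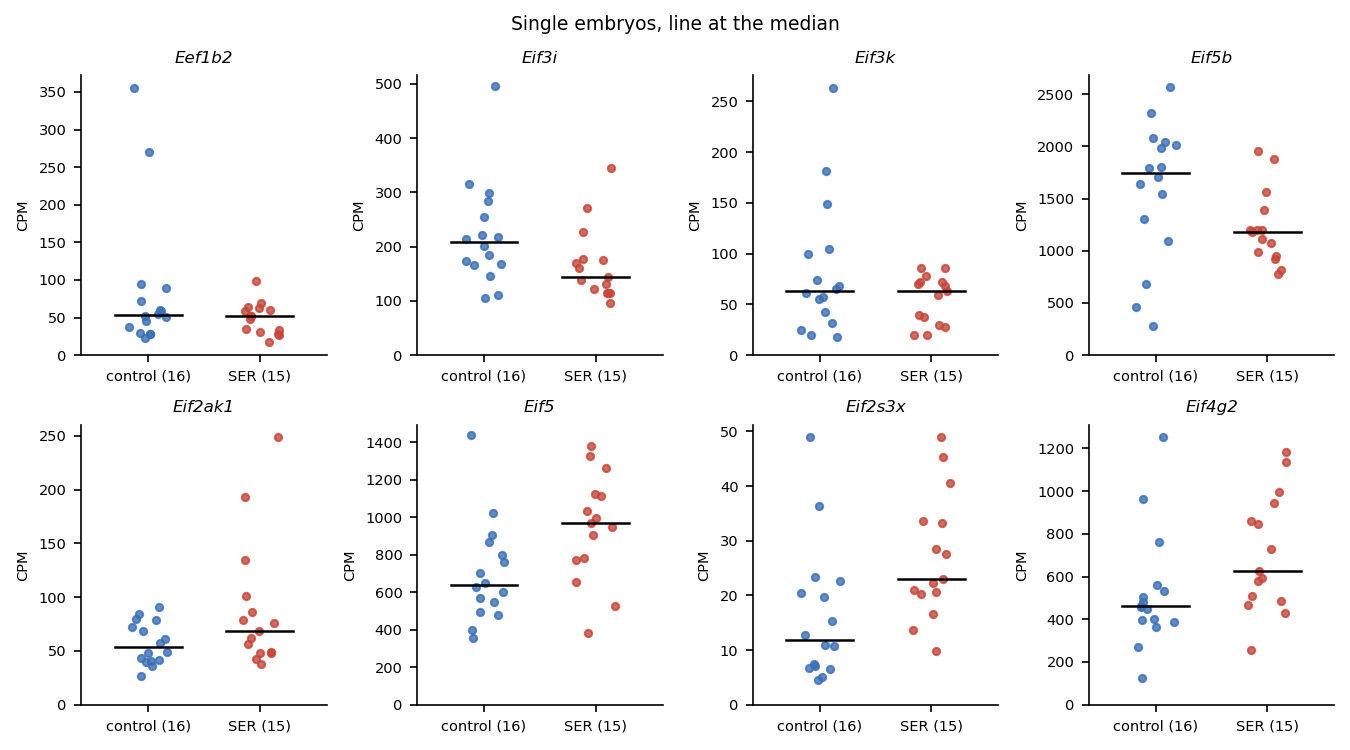
Level in every embryo, in CPM, of 4 factors with lower estimates (top) and 4 with higher estimates (bottom) in SER-generated embryos, with a line at the median of 16 control- and 15 SER-generated embryos. The groups overlap in every panel, and the 2 highest control embryos of Eef1b2, at 271 and 355 CPM, stand well above all others.

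By role, higher and lower estimates were mixed in most groups. Of 12 tested eIF3 subunit genes, 5 had higher and 7 lower estimates, with a median of -0.07 on the log2 scale. For eIF4F and helpers, 7 were higher and 6 lower (median 0.02), for eIF2 and eIF2B 4 and 4 (median 0.05), and for scanning, joining and release 5 and 5 (median -0.04). All 3 tested eIF2 kinases had higher estimates, but Eif2ak4, at 0.02 on the log2 scale, turned lower in 4 of 12 other fits, DESeq2's size factors among them, and Eif2ak3, at 0.34, in 1, with 5 surrogate variables (-0.18). Of 5 eEF1 genes, 3 had lower estimates. The 13 factors below the filter were Eif5a2, Eif4ebp3, Eif2s3y, Eif2ak2, Eif2c5, Eif3j1, Eif3j2, Eef1a2, Eef2kmt, Eef1akmt1, Eef1akmt2, Eef1akmt3 and Eef1akmt4-ece2. For the 12 of these with a count, the fit of all 17803 genes without the filter gave adjusted p between 0.526 and 0.999.

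The call depended on one setting. With limma voom and sample quality weights, which give embryos with scattered values less weight, 8 of the 58 factors passed an adjusted p of 0.1, where 9.89% of all tested genes did. Higher in SER-generated embryos by that test were Eif5 (log2 fold change 0.61, adjusted p = 0.0168), Eif2s3x (1.34, adjusted p = 0.0168), Eif4g2 (0.65, adjusted p = 0.0209), Eif4e (0.67, adjusted p = 0.0580) and Eif2a (0.60, adjusted p = 0.0893). Lower were Eif5b (-0.68, adjusted p = 0.0168), Eef2k (-1.14, adjusted p = 0.0171) and Eif4e1b (-0.85, adjusted p = 0.0625). The weights ran from 0.0863 for SER replicate 15 to 6.14 for control replicate 6, and control replicates 3, 1 and 4 had 0.236, 0.276 and 0.357. In edgeR's test, Eef2k had an estimate of -0.26 (log2, SE 0.37, adjusted p = 0.968) and Eif2a one of 0.04 (log2, SE 0.30, adjusted p = 0.993). That of Eef2k was -0.12 without control replicate 4 and -0.49 without SER replicate 15. By the same test, Eif4e1b had an estimate of -0.09 (log2, SE 0.37, adjusted p = 0.987) and Eif4e one of 0.02 (log2, SE 0.29, adjusted p = 0.997). Eif4e1b and Eif4e also moved with single embryos. The estimate of Eif4e1b was 0.13 without control replicate 4, -0.32 without SER replicate 15 and -0.21 without control replicates 1 and 3, and that of Eif4e was 0.32 without control replicate 1 and 0.38 without control replicates 1 and 3, with adjusted p between 0.810 and 0.978.

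Many elongation factor and some initiation factor mRNAs carry a terminal oligopyrimidine tract (TOP), a run of C and T at the transcript's start that places their translation, with that of ribosomal protein mRNAs, under mTOR. Of 9 such factors, 6 had lower estimates after SER, at a median of -0.28 on the log2 scale, and of 83 tested ribosomal protein genes 75 had lower estimates, with a median of -0.34. The sizes of these medians moved with single embryos. Without control replicate 1 they were -0.23 and -0.16, with 63 of 81 ribosomal protein genes lower, and without control replicate 3 they were -0.11 and -0.19, with 65 of 83 lower. Without both they were -0.02 and 0.13, with 5 of 9 and 25 of 83 lower, but these controls were picked for their high ribosomal protein share, so leaving them out raises the ribosomal estimate by construction. With voom and quality weights 2 of 9 and 9 of 83 were lower, with medians of 0.16 and 0.35. With 5 surrogate variables 4 of 9 and 64 of 83 were lower (medians 0.05 and -0.21). Of all tested genes, 47.3% were lower in the main fit, with a median of 0.02. This was 43.8% (median 0.06) without both controls, 51.0% (-0.01) with voom and quality weights, and 56.3% (-0.06) with 5 surrogate variables.

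Annotated starts of 5 of the 9 were in the RefSeq table of GRCm38.p6 (Eef1d, Eef1g, Eif3e and Eif3h were not), and the 10 bases before to 20 bases after each start are shown to let the tract be seen. Capitals mark a C followed by at least 4 bases that are each C or T, beginning within 5 bases of the start, searched on the transcript's strand.
Eef1a1: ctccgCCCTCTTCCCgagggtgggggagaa
Eif3f: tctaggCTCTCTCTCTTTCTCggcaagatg
Eef1b2: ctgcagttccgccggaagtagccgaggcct
Eef2: aaggccgggcgttgacgtcagcggtctctt
Eif4b: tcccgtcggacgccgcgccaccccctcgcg
These windows lie at chr9:78481705-78481734 (minus strand), chr7:108934405-108934434, chr1:63176821-63176850, chr10:81176621-81176650 and chr15:102073763-102073792 (plus strand). The tract was found in 2 of these 5 windows, in 23.9% of 67 promoters of the 55 factors in the table, in 42.3% of 78 ribosomal protein promoters and in 18.3% of all 32851 promoters. Annotated starts can differ from the start used in the embryo, and a window without capitals says only that no such run begins within 5 bases of the annotated start, since runs farther from it were not marked. The log2 fold changes were -0.28 (SE 0.21) for Eef1a1 and -0.43 (SE 0.30) for Eif3f, whose windows hold a marked run. They were -0.92 for Eef1b2, 0.21 (SE 0.25) for Eef2 and 0.23 for Eif4b, whose windows hold no marked run. Whether a marked run lies in the embryo's transcript was not tested, so these windows do not sort the 5 genes by tract. With single embryos left out, the estimate ran from -0.33 to -0.11 for Eef1a1 and from 0.08 to 0.29 for Eef2.

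To ask whether SER-generated embryos were more alike, the absolute deviation of each gene's log2(CPM + 1) from its group median was compared by limma, after every library was thinned to 532945 counts. No factor differed in spread at an adjusted p under 0.1 or at an unadjusted p under 0.05, and of all tested genes 0.0% and 3.3% did. The spread was smaller in SER-generated embryos for 31 of 58 factors, where it was smaller for 52.4% of all tested genes. In the thinned counts of 31 embryos the steadiest factors were Eif4b, Eif2s2 and Eif1, with an SD of log2(CPM + 1) of 0.39, 0.42 and 0.42, and the most variable were Eef1aknmt, Eif3m and Eif3l with 1.90, 1.71 and 1.62.

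Several factors come as pairs of paralogs, and the balance within 10 pairs was compared by the log2 ratio of their counts in each embryo. No ratio differed between the groups at an adjusted p under 0.1 (permutation test of 100000 resamples, 2-sided, adjusted p between 0.606 and 0.984 over the 10 pairs). Per kb, the oocyte form Eif4e1b exceeded Eif4e in 27 of 31 embryos, with a median log2 ratio of 2.17 and a range from -0.95 to 4.94. The autosomal Eif1a exceeded the X-linked Eif1ax in 22 embryos. In contrast, Eif4a2 exceeded Eif4a1 in 2, Eif1b exceeded Eif1 in 2 and Eif4g2 exceeded Eif4g1 in 7 embryos, and Eif5a2, Eif4g3, Eif4e2 and Eef1a2 did not exceed their partners in any. Eif4ebp2 exceeded Eif4ebp1 in 8 embryos. In each pair the group means differed by less than the SD within either group. For the log2 count ratio of Eif4e1b to Eif4e they were 0.90 ± 1.67 (SD, n = 16) in control- and 0.41 ± 1.66 (SD, n = 15) in SER-generated embryos. Count ratios are not scaled by exon length, while the numbers of embryos above are per kb and depend on that scaling. For Eif4g2 to Eif4g1 the mean log2 count ratio was -0.08 in control- and -0.09 in SER-generated embryos.

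Levels differed widely between single embryos of both groups. Eif4e1b (chromosome 13, 54783998 to 54788459, plus strand) ran from 244 CPM through a median of 628 to 2212 CPM in control-generated embryos and from 147 CPM through 587 to 2212 CPM in SER-generated embryos, a 15.1-fold range. Control replicate 4 and SER replicate 15, the embryos lowest in zygotic transcripts, had the 2212 CPM each. Eif4e (chromosome 3, 138526179 to 138559696, plus strand) ran the other way, from 192 CPM through 297 to 1450 CPM and from 145 CPM through 454 to 789 CPM. Over 31 embryos the log2 levels of the pair had r = -0.64 and rho = -0.64 (2-sided permutation test, adjusted p = 0.00042 and 0.0007 over 7 relations), with -0.75 in control- and -0.56 in SER-generated embryos. Without the 2 embryos farthest from the median of Eif4e's level, r was -0.61 (p = 0.00038).

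Other factors were then set against Eif4e1b, which was chosen after its values had been seen. All points share the library total as denominator. Of 57 factors, 27 had r of -0.5 or less with Eif4e1b, where 19.7% of all tested genes did, and 4 had r of 0.5 or more, where 18.1% did. Without control replicate 4 and SER replicate 15, it was 21 and 3 factors, where 14.4% and 17.1% of all tested genes did. With permutation tests (2-sided, 100000 resamples) adjusted over all 8570 other tested genes, 38 of 57 factors had an adjusted p under 0.05 over 31 embryos, where 51.9% of all tested genes did, and 31 over 29 embryos, where 41.3% did. For the strongest relations the unadjusted p was 1e-05, the smallest these resamples can give. The pattern was not particular to the factors, since 79 of 83 ribosomal protein genes also had r of -0.5 or less with Eif4e1b.

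Factors that varied with Eif4e1b were few. Eef2k, the kinase that slows elongation (chromosome 7, 120842831 to 120907450, plus strand), had r = 0.87 and rho = 0.89 over 31 embryos (permutation test, adjusted p = 8.26e-05 and 8.83e-05) and r = 0.85 over 29 embryos (adjusted p = 0.000151). Its level ran from 58.5 CPM through 299 to 804 CPM in control- and from 53.7 CPM through 159 to 763 CPM in SER-generated embryos. Eif4e3 (chromosome 6, 99625135 to 99666771, minus strand), a cap-binding relative, had r = 0.80 and rho = 0.86 (adjusted p = 8.26e-05 and 8.83e-05) and r = 0.74 over 29 embryos, from a range of 28.2 to 912 CPM. Eif2b1 and Eif2ak4 followed with r = 0.56 and 0.54, and 0.51 and 0.49 over 29 embryos. For Eif2b1, r was 0.09 in control- and 0.83 in SER-generated embryos, a difference that was not tested.

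**Figure D4:**
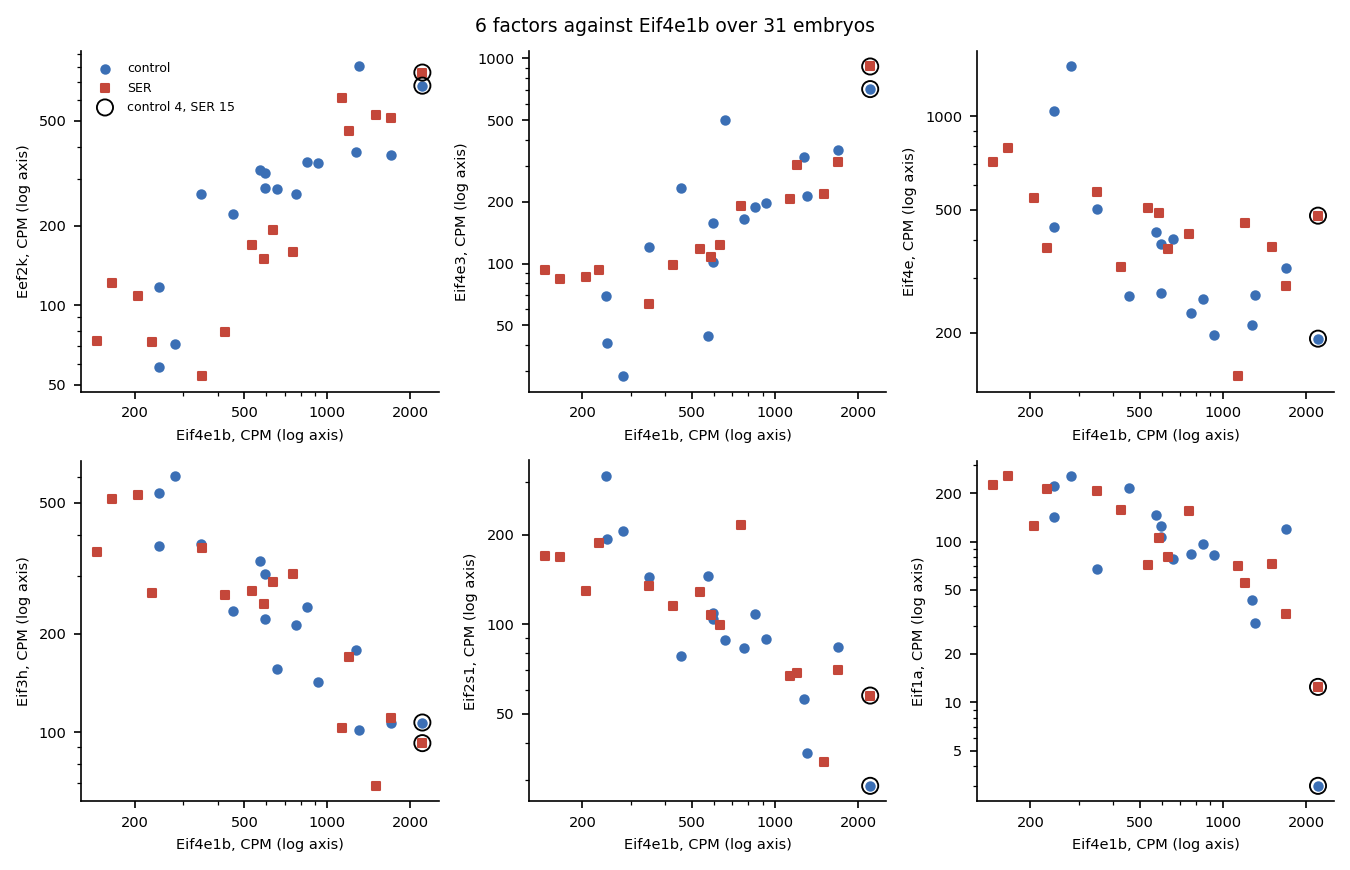
Level of 6 factors against that of Eif4e1b in 31 embryos, in CPM on log axes, with control-generated embryos as circles and SER-generated embryos as squares. Eef2k and Eif4e3 tended to be high and Eif4e, Eif3h, Eif2s1 and Eif1a low where Eif4e1b was high, and control replicate 4 and SER replicate 15 (ringed) have the highest Eif4e1b, with SER replicate 15 above most embryos in Eif4e at 478 CPM.

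Most eIF3 subunit genes varied against Eif4e1b. Of 12, 10 had r of -0.5 or less over 31 embryos and 7 over 29 embryos, and 11 and 10 had an adjusted p under 0.05. Eif3h (chromosome 15, 51786558 to 51865523, minus strand) had r = -0.88 and rho = -0.88 (adjusted p = 8.26e-05 and 8.83e-05) and -0.86 over 29 embryos, and ran from 102 CPM through 228 to 604 CPM in control- and from 68.7 CPM through 265 to 529 CPM in SER-generated embryos. Eif3k, Eif3g and Eif3c had r of -0.76, -0.74 and -0.72. Eif3i was the exception, with r = 0.17 (adjusted p = 0.462). The summed eIF3 transcripts ran from 650 CPM through 2289 to 4156 CPM in control- and from 544 CPM through 2776 to 4393 CPM in SER-generated embryos, with the lowest value of each group in control replicate 4 and SER replicate 15, and from 1015 to 4393 CPM in the other 29 embryos.

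In the other roles, factors with strongly negative r included Eif2s1 (r = -0.81, and -0.78 over 29 embryos), Eif1a (-0.77 and -0.77), Eif4a3 (-0.75 and -0.70), Eef1d (-0.73 and -0.67) and Eif1ad (-0.73 and -0.65), each with an adjusted p of at most 0.000697 over 29 embryos. Eif5a, Eif4g1, Eif4ebp1 and Eef1a1 had pooled r between -0.09 and 0.08 and adjusted p between 0.704 and 0.928. Within control- and SER-generated embryos r was 0.32 and -0.54 for Eif4g1, -0.40 and 0.37 for Eif4ebp1, -0.19 and 0.40 for Eef1a1 and 0.14 and -0.26 for Eif5a, and 0.26 and -0.83 for Eef2. These differences between the groups were not tested.

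**Figure D5:**
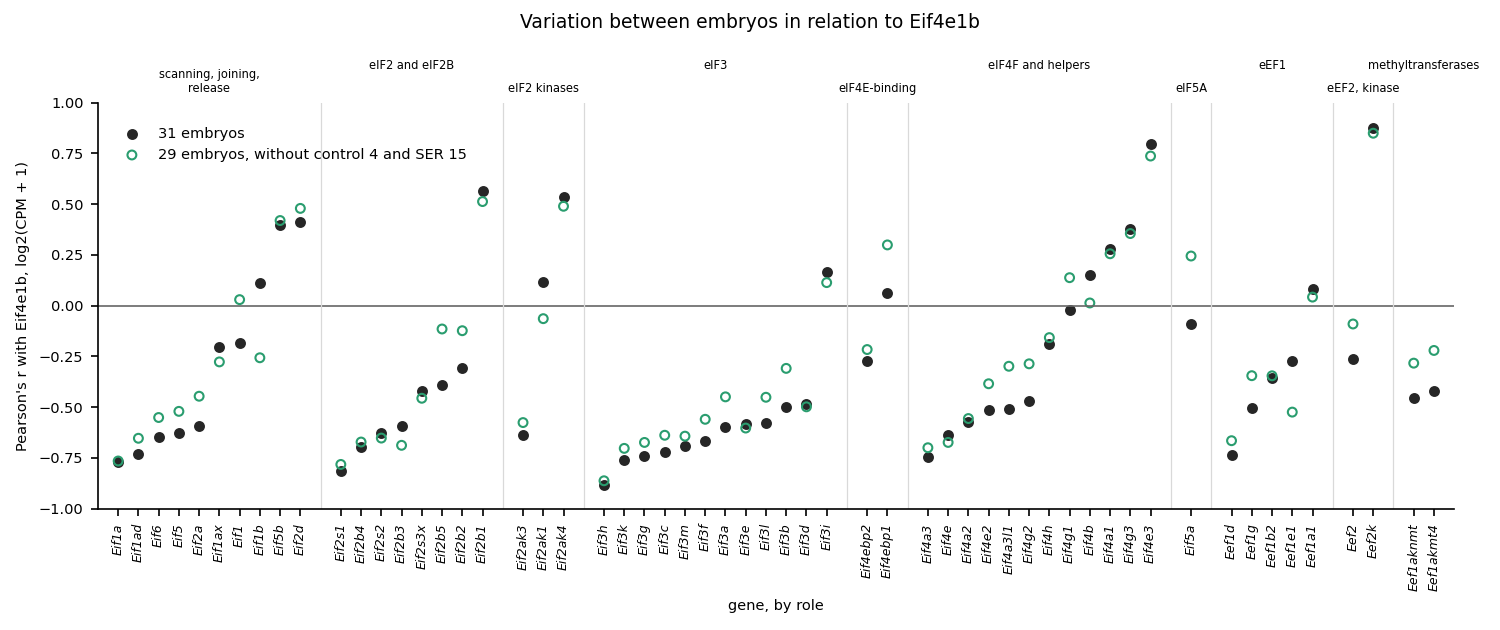
Pearson's r between log2(CPM + 1) of each of 57 factors and of Eif4e1b, by role, over 31 embryos (filled) and over 29 embryos without control replicate 4 and SER replicate 15 (open). All but 1 of the 12 eIF3 subunit genes lie below 0, and Eef2k and Eif4e3 lie highest.

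In control replicate 4 and SER replicate 15 themselves, 12 of the 58 factors were below all other 29 embryos in both, where 13.2% of all tested genes were, and 3 were above all others in both, where 4.87% were. The 12 lower were Eif1a, Eif2a, Eif2b4, Eif2b5, Eif3a, Eif3b, Eif3c, Eif3f, Eif3g, Eif4a3, Eif4g2 and Eif5. Eif3c had 13.6 and 9.74 CPM there, against 31.3 to 881 CPM in the other embryos, and Eif1a 3.02 and 12.5 CPM against 31.3 to 256 CPM. The 3 higher were Eif4e1b, Eif4e3 and Eif1b, with 422 and 405 CPM of Eif1b against 18.3 to 284 CPM. The 2 embryos belong to different groups, and without them 0 of the 58 factors were called between SER and control.

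The relation of 6 factors to the summed zygotic list was less steady. Eif4e varied with it, with r = 0.47 and rho = 0.55 (permutation test, adjusted p = 0.0156 and 0.00528), and r = 0.60 without the 2 embryos farthest from the median. Eif4e also varied with the library total (r = 0.46 with its log2), and the part of depth in this relation was not tested. Eif1a, whose relatives are known among 2-cell transcripts, had r = 0.70 (adjusted p = 0.00101) but rho = 0.33 (adjusted p = 0.116), and r = 0.16 (p = 0.409) without the 2 embryos, so the relation rested on control replicate 4 and SER replicate 15. Eif4e1b had r = -0.47 (adjusted p = 0.0112), rho = -0.39 (adjusted p = 0.077) and r = -0.22 (p = 0.249) without them. Eif1ax, Eif4a1 and Eef1a1 had r of 0.07, -0.08 and 0.04, with adjusted p of 0.829 to 0.844.

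Eif2s3y, the Y-linked partner of Eif2s3x, was counted in 9 control- and 7 SER-generated embryos, at up to 124 counts in a library. Of these 16 embryos, 15 also had counts of other Y-linked genes and 1, SER-generated, had none. Another 8 embryos, 5 control- and 3 SER-generated, had other Y-linked genes without Eif2s3y. The 7 with neither were 2 control- and 5 SER-generated embryos, and whether this bears on the estimate of the X-linked Eif2s3x was not tested. Of the 16, 14 had at least 3 counts of it.

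Of 47 further genes that act on or with the factors, 40 were tested, and 0 were called (0.0% of all tested genes were). Estimates in SER-generated embryos were higher for 29 and lower for 11 of them, where 52.7% of all tested genes had higher ones. An unadjusted p under 0.05 was found for 2 of them. Eif4enif1, which encodes a repressor that binds eIF4E in stored mRNA particles, had 250 ± 50.8 CPM (SD, n = 16) in control- and 383 ± 112 CPM (SD, n = 15) in SER-generated embryos, an estimate of 0.58 (log2, SE 0.17, adjusted p = 0.403). Ddit3, a transcription factor gene induced when eIF2 is phosphorylated, had 97.5 ± 96.7 and 59.95 ± 52.6 CPM, an estimate of -0.80 (log2, SE 0.39, adjusted p = 0.869). Mtor had 77.2 ± 25.6 and 78.9 ± 39.8 CPM (log2 fold change 0.00, SE 0.28). By list, 8 of 10 tested cap and poly(A) genes and 6 of 8 signalling genes had higher estimates, and 3 of 4 genes of reinitiation and helicases lower ones. Estimates were higher for 3 of 5 genes of the integrated stress response, 4 of 5 of hypusine and diphthamide synthesis, 5 of 6 of termination and recycling and 2 of 2 of the release of eIF6. These lists are short, and none was tested as a set.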

How the data were processed

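RNA of single embryos was sequenced by a modified Smart-seq3 protocol with 19 cycles of preamplification. The authors separated 5′ reads with molecular identifiers from internal reads, aligned both with STAR to mm10 (build per the submitters' processing notes), removed duplicates with UMI-tools and Picard, kept uniquely mapping 5′ reads, and used featureCounts for reads per gene. The deposited table holds raw counts without normalization. Versions, annotation and strand setting are not given in the sources used here. The study's ComBat-seq batch correction could not be repeated, since no label names an embryo's batch. Internal reads carry no molecular identifier, so depth gives only a lower bound on counting error.

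Groups were compared with edgeR 4.0.16 (R 4.3.3; quasi-likelihood test, TMM, filterByExpr with a minimum count of 10 and total of 15), and spread with limma 3.58.1. The standard error is the log2 fold change divided by the square root of F. The members and lists were chosen with earlier results of these data known. Named genes were those with the smallest p (5 higher, 5 lower), the highest level per role, the extremes of spread, the paralogs and a written list. Exon lengths came from GENCODE vM21, where 20013 symbols matched directly, 336 by another name and 195 not. Alternatives were other scalings and filters, DESeq2 1.42.0, voom with quality weights, surrogate variables (sva 3.50.0), library total as covariate, the replicate number as block and each embryo left out. Simulated data on 8159 genes gave 113 of 200 changed genes called and 8 unchanged ones. All 31 libraries differed from each other.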

Additional observations from a re-analysis of the deposited data

How the results depend on the processing

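Of 44 alternatives to the comparison of the factors between SER- and control-generated embryos, 43 called 0 factors and 1, limma voom with sample quality weights, called 8. The cause was not tested. Leaving out each of the 31 embryos in turn gave 0 to 0 called factors. After the data had been seen, control replicate 4 with SER replicate 15, control replicate 5, and control replicates 1 with 3 were also left out, and each gave 0 called factors. Of 37 named factors tested, 19 kept their sign in every alternative fit other than leaving out single embryos. The spread comparison gave 0 factors with counts as deposited and with a pseudocount of 5 CPM, and the paralog comparison 0 pairs with a pseudocount of 1 and with thinned counts. Of the 7 relations, 4 had an adjusted p under 0.05, and 2 without the 2 embryos farthest from the median of the measure on the x axis. Same-numbered embryos did not pair: over 15 pairs the correlation of their deviations ran from -0.37 to 0.49, with 8 over 0.1, and 2 SER-generated embryos correlated best with their own number. The replicate block gave 0 called factors. With it, 77 of 83 ribosomal protein genes had lower estimates, with a median of -0.32 on the log2 scale, where 47.4% of all tested genes did.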
